A study of Rattus norvegicus with 18 samples.

Results

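The full-length transcript (FLT) annotation of rat hippocampus holds 28268 isoforms, and 804 of them (2.84%) are at most 700 nt long. These 804 short isoforms were chosen by the read length written in each isoform identifier, the number directly before SUB, and no measured level was used. They ranged from 369 to 700 nt with a median of 580 nt, against a median of 2235 nt and a maximum of 23400 nt over all isoforms. Among them, 212 were at most 500 nt long, 254 were over 500 and up to 600 nt, 338 were over 600 nt, and 13 were under 400 nt. The identifiers mark 730 of the short isoforms (90.8%) as circular consensus reads, that is, reads averaged over repeated passes around the same PacBio molecule, and the other 74 as subreads, which are single passes. Of all isoforms, 72.4% carry the circular consensus mark. Most short isoforms (711, 88.4%) also carry the mark LD1, which 6.32% of all isoforms carry, but what LD1 stands for is not given in the sources used here.

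RNA levels came from 12 Illumina libraries of Sprague Dawley rats in 6 groups of 2 replicate libraries, for which the labels give male animals of 4 weeks. The hippocampus libraries were made from hippocampal slices. The somata and neuropil libraries came from 2 layers of the CA1 region of such slices that were cut apart by hand, and the ribosome-free, monosome and polysome libraries from fractions of whole brain lysate separated by polysome profiling. No treatment or genetic change is given for any group, and the 6 ribosome footprinting libraries of the series are not analysed here. The layers are hand-cut tissue, so neuropil also holds glia, interneurons and vessels, and the fractions come from whole brain while the annotation comes from hippocampus. The labelled tissues could not be checked against marker genes here, since the tables of levels carry isoform identifiers with no gene names. All levels are TPM values, which give the share of all transcripts in a library that is assigned to an isoform after correction for its length. A level in a fraction is thus relative to that fraction, and the amount of RNA in each fraction is not given.

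Messenger RNAs are translated by ribosomes that load onto the same molecule behind each other. Sedimentation through a sucrose gradient separates RNA with no ribosome (ribosome-free) from RNA with a lone ribosome (monosome) and RNA with several (polysome), and a short coding sequence has room for fewer ribosomes than a long one. Short polyadenylated RNAs of brain include mRNAs of small proteins, among them many ribosomal proteins and subunits of the respiratory chain. Neurons also send mRNAs from the cell body into dendrites and axons, and in CA1 the cell bodies lie in the somata layer and the dendrites in the neuropil.

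The short isoforms were more often abundant in hippocampus than isoforms in general, and about as often listed at 0. Of the 804, 179 (22.3%) were listed at 0 TPM in both hippocampus libraries, against 23.5% of all isoforms. Another 34 had a mean above 0 and up to 1 TPM, 235 a mean up to 10 TPM, and 225 a mean up to 100 TPM. At the upper end, 109 short isoforms (13.6%) had a mean above 100 and up to 1000 TPM, a level reached by 6.65% of all isoforms, and 22 (2.74%) were above 1000 TPM, against 0.382% of all. Among the isoforms above 0, the median was 15.3 TPM for the 625 short ones and 10.5 TPM for all. The 22 short isoforms above 1000 TPM held 46.3% of the TPM of the whole class.

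Replicates of the short isoforms spread more widely than those of isoforms in general in somata and ribosome-free RNA, and about as widely in the other groups. For short isoforms that averaged 1 TPM or more in a group, replicates differed on the log2(TPM + 1) scale with an SD of 1.41 in hippocampus, 1.55 in somata, 1.59 in neuropil, 1.49 in ribosome-free, 0.98 in monosome and 0.90 in polysome RNA. Over all isoforms the same SD was 1.44 in hippocampus, 1.37 in somata, 1.65 in neuropil, 1.28 in ribosome-free, 0.94 in monosome and 0.84 in polysome RNA. TPM hold no read counts, and with the depth of all 12 libraries unknown no counting interval or detection limit is given. The labels do not say whether the 2 libraries of a group came from separate animals, so all p-values here measure only the spread between these libraries.

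The share of transcripts held by the short isoforms differed between the fractions by more than the replicates differed. They held 30.4% and 30.2% of the TPM of the ribosome-free libraries, 17.6% and 18.4% of monosome TPM and 8.25% and 9.44% of polysome TPM. The means were 30.3% ± 0.143 (SD, n = 2), 18.04% ± 0.556 and 8.85% ± 0.838, so the polysome share was 0.292 times and the monosome share 0.595 times the ribosome-free share. No values overlapped between these 3 groups, but the exact two-sided permutation test with 2 libraries a group can reach no p below 0.333, which was its value for each pair of fractions.

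The next longer class moved the same way over a narrower range. The 1362 isoforms of over 700 and up to 1000 nt held 16.8% and 16.2% of ribosome-free TPM, 14.8% and 14.7% of monosome TPM and 12.9% and 13.1% of polysome TPM. The 1362 isoforms over 4000 nt ran in the other direction, with 2.38% and 2.57% of ribosome-free TPM and 4.51% and 4.47% of polysome TPM. In tissue that was not fractionated, the short isoforms held 9.15% and 7.35% of the TPM of hippocampus, 8.56% and 8.14% of somata and 9.72% and 9.62% of neuropil. These values lie near those of polysome RNA, but the tables were made separately from different tissue and library kits, and levels were tested only within a table.

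**Figure D1:**
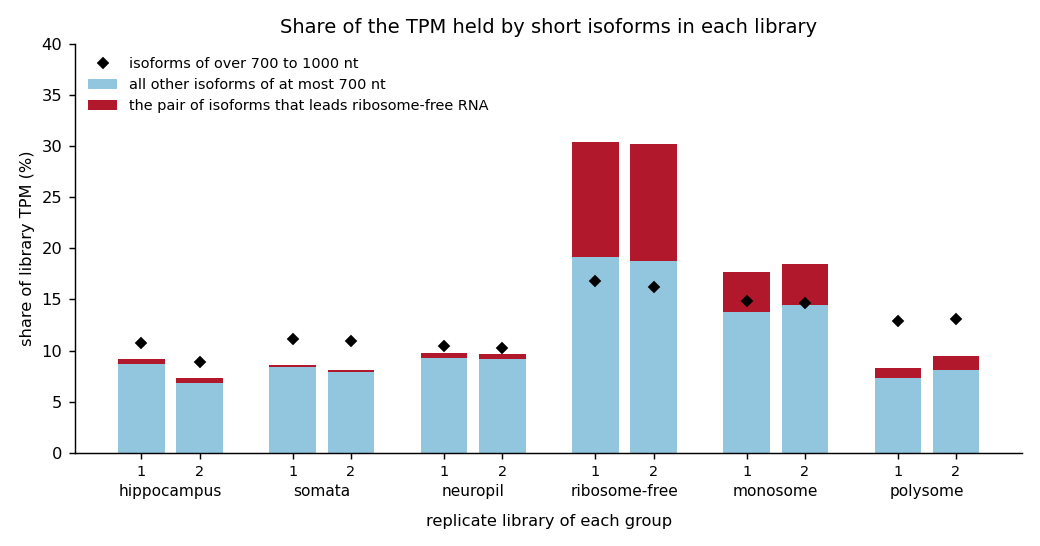
Share of the TPM of each of the 12 libraries held by short isoforms (bars, in %), split into the pair of isoforms that led ribosome-free RNA (dark red) and all other short isoforms (light blue), with isoforms of over 700 and up to 1000 nt as diamonds. The ribosome-free bars reach 30.4% and 30.2%, the polysome bars 8.25% and 9.44%, and without the dark red part the ribosome-free bars still reach 19.1% and 18.8%.

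A small number of isoforms made up most of the short class in ribosome-free RNA. The most abundant of them held 24.9% of the class there and the 10 most abundant held 63.9%, and 5 isoforms were enough to reach 50% of its TPM. The 10 most abundant held 44.2% in monosome RNA, 32.4% in polysome RNA, 28.3% in hippocampus, 27.7% in somata and 34.0% in neuropil. Reaching 50% took 14 isoforms in monosome, 23 in polysome, 26 in hippocampus, 26 in somata and 20 in neuropil RNA. The first isoform was 12.5 times the tenth in ribosome-free RNA, 8.05 times in monosome, 3.99 times in polysome and 3.21 times in hippocampus RNA.

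Short isoforms also filled most of the first 10 ranks of the ribosome-free libraries, but not most of the first 100. They took 7 of the 10 most abundant places in each ribosome-free library and 5 in each monosome library. In the polysome libraries they took 1 and 2, in the hippocampus libraries 2 and 2, in the somata libraries 2 and 1, and in the neuropil libraries 4 and 5. Of the 100 most abundant isoforms, short ones made up 34 and 35 with ribosome-free RNA, 36 and 36 with monosome RNA and 20 and 22 with polysome RNA. Without the leading pair of ribosome-free RNA, the other short isoforms still held 19.1% and 18.8% of ribosome-free, 13.8% and 14.5% of monosome and 7.32% and 8.15% of polysome TPM. With the pair also taken out of the total, these shares were 21.5% and 21.2%, 14.3% and 15.1%, and 7.39% and 8.25%. Without the 10 most abundant short isoforms of each group, the shares of the full TPM were 11.004% and 10.8%, 9.997% and 10.1%, and 5.58% and 6.38%. The 3 fractions still did not overlap. The full TPM still counts those 10, which held 19.4% and 19.4% of ribosome-free but 7.65% and 8.29% of monosome TPM. As shares of the remaining TPM, ribosome-free and monosome RNA would thus lie further apart.

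**Figure D2:**
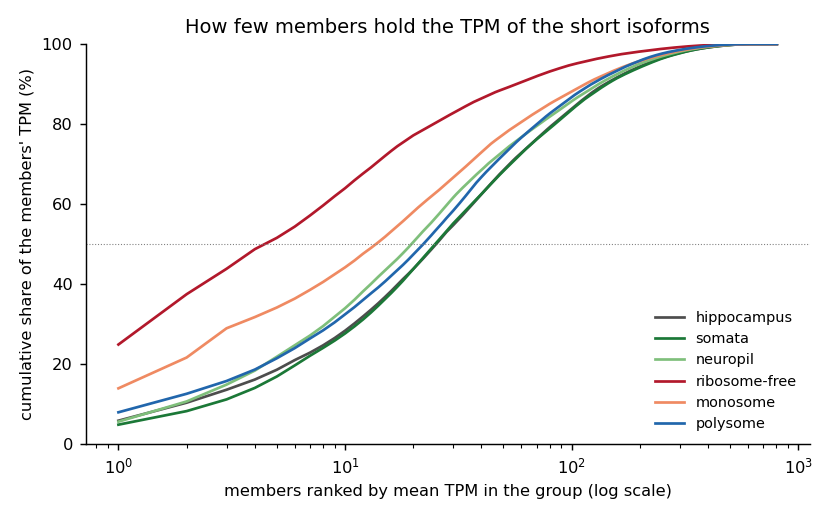
Cumulative share of the TPM of the short isoforms (vertical axis, in %) against the rank of the isoform by mean TPM in each of the 6 groups (horizontal axis, log scale), with a dotted line at 50%. The ribosome-free curve crosses 50% at 5 isoforms, the monosome curve at 14 and the other 4 curves between 20 and 26.

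The isoform at the head of the class was RSN_LD1.109_ccs_115249_595_0_595_595_SUB0_pTNu_31, of 595 nt. It stood at 75857 and 74985 TPM in ribosome-free, 24988 and 25308 in monosome and 6013 and 8058 TPM in polysome RNA. The 3 fractions did not overlap, and every step downwards was called by limma (polysome against ribosome-free log2 fold change -3.44 ± 0.17 (SE), adjusted p = 2.7e-04; monosome against ribosome-free -1.58, adjusted p = 0.0025; polysome against monosome -1.85, adjusted p = 0.0029). The first of these calls was lost with no filter on low levels and with quantile normalization, and the other 2 were also lost when either ribosome-free library was left out. In hippocampus it stood at 4333 and 5325 TPM, in somata at 1566 and 1734 and in neuropil at 3304 and 3364 TPM. It was the most abundant short isoform in hippocampus and in all 3 fractions, and both neuropil values lay above both somata values.

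The second isoform of ribosome-free RNA was RNN_LD1.109_ccs_157220_561_0_561_561_SUB0_uNAp_41, of 561 nt. Its values were 37066 and 39171 TPM in ribosome-free, 13523 and 14257 in monosome and 3335 and 4852 TPM in polysome RNA. No fraction overlapped with another, and it was called lower at every step (log2 fold change of polysome against ribosome-free RNA -3.24 ± 0.20 (SE), limma adjusted p = 3.9e-04). However, all 3 calls were lost with no filter on low levels. The calls of monosome against ribosome-free and of polysome against monosome RNA were also lost with quantile normalization, and the former when either ribosome-free library was left out. Of its mean TPM summed over the 3 fractions, 67.9% lay in ribosome-free, 24.8% in monosome and 7.30% in polysome RNA. The 595-nt isoform was split almost alike (70.1%, 23.4% and 6.54%). These sums take no account of how much RNA each fraction held, so they do not say where most molecules were. In unfractionated tissue the 561-nt isoform differed from the 595-nt isoform. It stood at 304.3 and 314.1 TPM in hippocampus, 551.7 and 568.5 in somata and 1078 and 1080 TPM in neuropil.

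A pair of isoforms under 500 nt followed the same course. RNN_LD1.108_ccs_63356_480_0_480_480_SUB0_pNAp_37, of 480 nt, stood at 19069 and 19418 TPM in ribosome-free, 11280 and 15068 in monosome and 1194 and 1407 TPM in polysome RNA. Its drop from monosome to polysome RNA was the steeper one (log2 fold change -3.33 ± 0.17 (SE), limma adjusted p = 0.0015), and the difference between monosome and ribosome-free RNA was not called (-0.56, adjusted p = 0.055). RSN_LD1.107_ccs_129472_483_0_483_483_SUB0_pNAp_30, of 483 nt, stood at 15022 and 14714 TPM in ribosome-free, 4393 and 5741 in monosome and 1067 and 1088 TPM in polysome RNA, and was called lower at every step (log2 fold change of polysome against ribosome-free RNA -3.79 ± 0.15 (SE), limma adjusted p = 2.1e-04). With no filter on low levels, the calls between monosome and polysome RNA of both isoforms were lost, as was that of monosome against ribosome-free RNA for the 483-nt isoform. Both were among the leading short isoforms of somata, where the 480-nt isoform stood at 4334 and 3778 TPM and the 483-nt isoform at 2651 and 2235 TPM.

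Not every abundant short isoform was lowest in polysomes. RNN_LD1.105_ccs_126600_539_0_539_539_SUB0_pTNp_17, of 539 nt, stood at 1475 and 1420 TPM in ribosome-free, 1253 and 1387 in monosome and 2865 and 2783 TPM in polysome RNA. Polysome RNA was above both other fractions in every library, by 0.96 ± 0.090 (SE) on the log2 scale against ribosome-free RNA (limma adjusted p = 0.0010) and by 1.098 against monosome RNA (adjusted p = 0.0024). The first of these calls was lost when the libraries were scaled by median ratios. RNN_LD2.103_ccs_25628_585_0_585_585_SUB0_pNAp_25, of 585 nt, was at 917.2 and 846.5 TPM in ribosome-free, 1208 and 921.8 in monosome and 2207 and 2031 TPM in polysome RNA. It lies outside the rule for named isoforms and was chosen, after its values were seen, as another of the 10 most abundant short isoforms of hippocampus with its highest level in polysomes.

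The isoform RSN_LD1.106_ccs_137372_558_0_558_558_SUB0_pNAp_34, of 558 nt, was abundant in all unfractionated tissue and nearly missing from part of the fractions. It stood at 2778 and 2555 TPM in hippocampus, 2868 and 2797 in somata and 4467 and 5302 TPM in neuropil. In the fractions it was listed at 0 in both monosome libraries, at 212.8 and 0 TPM in ribosome-free and at 401.4 and 1444 TPM in polysome RNA. RSEM, the program that made the TPM, divides reads among isoforms of like sequence, so a listed 0 is an estimate and no fold change is given. The call of polysome against monosome RNA (limma adjusted p = 0.0495) was lost in 11 of 16 alternative settings.

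**Figure D3:**
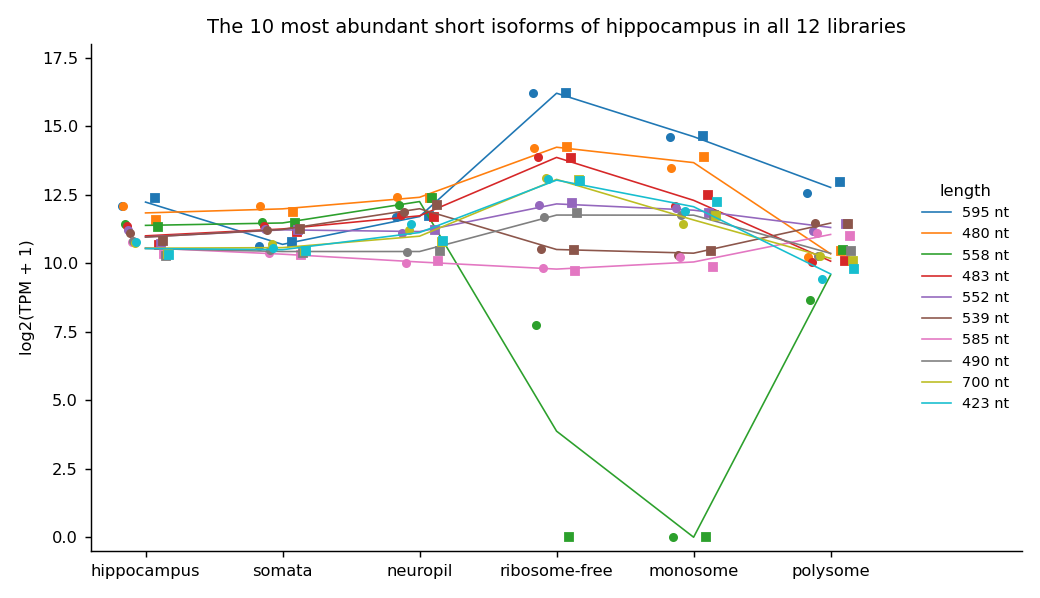
Level of the 10 short isoforms with the highest mean TPM in hippocampus, as log2(TPM + 1), in the 6 groups (circles replicate 1, squares replicate 2, lines through the mean of both, named by length). In the fractions 7 of the 10 had their highest mean TPM in ribosome-free RNA and 3 in polysome RNA, and the 558-nt isoform lies at 0 in both monosome libraries.

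The 10 most abundant short isoforms of hippocampus, a choice that used none of the fraction libraries, held 13.8% and 13.6% of ribosome-free, 5.74% and 6.37% of monosome and 1.92% and 2.29% of polysome TPM. In the limma test of polysome against ribosome-free RNA 7 of them were called lower and 2 higher, with a median log2 fold change of -2.14. Of all isoforms tested 11.1% were called lower and 34.1% higher, and of the 108 isoforms of any length above 1000 TPM in hippocampus 37 were lower and 57 higher, with a median of 0.57. The 40 isoforms that followed in hippocampus had a median of -0.52 in that comparison, with 19 lower and 6 higher, and the 150 after those a median of -0.04, with 49 lower and 35 higher. Below them, the 368 of 425 less abundant isoforms that could be tested had a median of -0.60, with 106 lower and 28 higher. The level in hippocampus and the fold change were thus not ordered along the whole list, and across the 563 tested isoforms above 0 in hippocampus Pearson's r was -0.0061 and Spearman's rho 0.040, a description over isoforms that share the same libraries.

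The leading isoforms were partly different between groups. Of the 10 most abundant short isoforms in each group, 23 different isoforms appeared in at least 1 group and 1 appeared in all 6, the 595-nt isoform. Somata and neuropil shared 9 of their 10, hippocampus shared 7 with somata and 8 with neuropil, and ribosome-free RNA shared 6 with monosome and 3 with polysome RNA.

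The first comparison asked whether short isoforms take a larger share of polysome or of ribosome-free RNA. Of the 804 short isoforms, 624 averaged 1 TPM or more over the fractions and were tested with limma, among 19667 isoforms in all. In polysome against ribosome-free RNA, 75 short isoforms were called higher and 189 lower, a call being an adjusted p under 0.05. The whole set of isoforms had 34.1% called higher and 11.1% lower, whereas 12.02% and 30.3% of the short isoforms were. The median log2 fold change of the short isoforms was -0.47, with quartiles of -1.59 and 0.57, and that of all isoforms 0.63. Both other scalings moved the median of all isoforms to 0.09. With quantile normalization 45 short isoforms were then called higher and 252 lower, against 20.5% and 17.6% of all isoforms. With median ratios 40 were higher and 263 lower, against 21.4% and 17.9% of all isoforms. Relative to the median of all isoforms, that of the short ones was -1.11 with TPM as deposited, -1.02 with quantile normalization and -1.06 with median ratios. Leaving out polysome replicate 2 left fewer calls among the short isoforms and over all isoforms, with medians of -0.54 and 0.61. The 1090 tested isoforms of over 700 and up to 1000 nt lay between, with 291 higher, 226 lower and a median of 0.13.

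The course between ribosome-free and monosome RNA was less clear. In monosome against ribosome-free RNA 157 (25.2%) were called higher and 72 (11.5%) lower, against 32.1% of all isoforms higher and 7.3% lower, and the median log2 fold change was 0.46 against 0.69 over all isoforms. The 1090 tested isoforms of over 700 and up to 1000 nt were much like the short ones, with 25.2% higher, 11.2% lower and a median of 0.42. The direction of the short isoforms depends on how libraries are scaled. With quantile normalization 75 were called higher and 113 lower with a median of -0.023, against 16.1% and 13.7% of all isoforms. With median ratios 53 were higher and 136 lower with a median of -0.15, against 15.4% and 15.1% of all isoforms. Higher calls thus became rarer and lower calls more frequent over all isoforms too. Relative to the median of all isoforms, that of the short ones was -0.23 with TPM as deposited, -0.09 with quantile normalization and -0.23 with median ratios. Leaving out monosome replicate 1 or 2 left fewer higher calls among the short isoforms and over all isoforms. The median of the short ones was then 0.45 or 0.46, against 0.68 or 0.69 over all isoforms.

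The class also shifted between the fractions that carry ribosomes. In polysome against monosome RNA, 24 short isoforms were called higher and 227 lower, or 3.85% and 36.4% of those tested, while 11.6% of all isoforms were called in each direction. The median log2 fold change was -1.04, against -0.02 over all isoforms and -0.27 over those of the next longer class, of which 168 were higher and 246 lower. Polysome and monosome values did not overlap for 394 short isoforms that were lower in polysomes and 79 that were higher, against 35.2% and 32.1% of all isoforms tested. Without monosome replicate 1 or 2 there were 118 or 100 lower calls, and without polysome replicate 1 or 2 there were 106 or 148 lower and 11 or 10 higher calls. The median stayed between -1.09 and -0.88 with any of the 6 libraries left out.

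**Figure D4:**
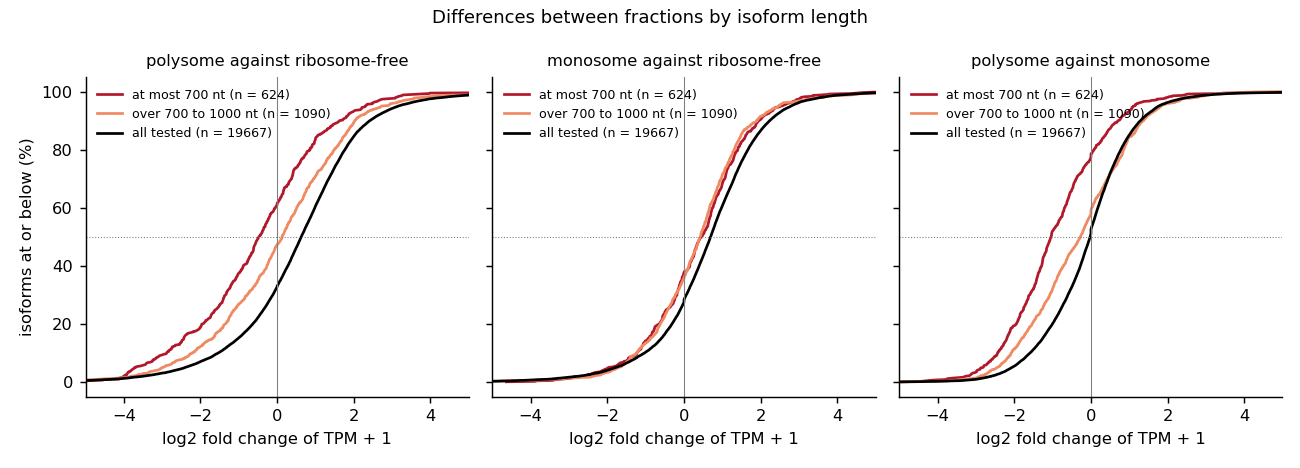
Cumulative distribution of log2 fold changes of TPM + 1 in the 3 comparisons between fractions, for isoforms of at most 700 nt (dark red, n = 624), of over 700 and up to 1000 nt (orange, n = 1090) and all tested (black, n = 19667). The dotted line marks 50%, where the short isoforms cross at -0.47, 0.46 and -1.04 and all isoforms at 0.63, 0.69 and -0.02.

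Over the 3 tests, 148 of the 624 short isoforms (23.7%) were called lower in polysome RNA than in both other fractions, as were 5.35% of all isoforms. By the same calls there were 72 short isoforms (11.5%, against 5.82% of all) that were higher in monosome RNA than in both other fractions, and 46 (7.37%, against 1.29%) that fell from ribosome-free to monosome and again from monosome to polysome RNA. In 18 (2.88%, against 9.93%) polysome RNA was higher than both others, and 248 (39.7%, against 43.0%) were called in none of the 3 tests. The patterns above and the peaks below were counted with TPM as deposited. Calls of monosome against ribosome-free RNA, which several patterns use, turned under other scalings. They were 75 higher and 113 lower with quantile normalization (16.1% and 13.7% of all isoforms) and 53 and 136 with median ratios (15.4% and 15.1% of all). By the highest mean TPM, 312 short isoforms (50%) peaked in monosome, 202 (32.4%) in ribosome-free and 110 (17.6%) in polysome RNA. The same shares over all isoforms were 39.2%, 20.0% and 40.8%. Isoforms over 4000 nt peaked in monosome RNA nearly as often as the short ones, with shares of 47.9%, 14.2% and 37.9%.

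Medians lay close together across lengths within the class. In polysome against monosome RNA the median log2 fold change was -1.19 in the 153 tested isoforms of at most 500 nt, -1.03 in the 205 of over 500 and up to 600 nt and -1.02 in the 266 longer ones. Across the 624 isoforms Pearson's r of the fold change with length was 0.048. By kind of read the median was -1.05 over 560 circular consensus reads and -1.03 over 64 subreads. By level, 15 of the 22 short isoforms above 1000 TPM in hippocampus were called lower in polysome than in monosome RNA and 4 higher, while of all 108 isoforms above that level 38 were lower and 47 higher.

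A pair of isoforms under 500 nt had the lowest fold changes of polysome against ribosome-free RNA among those eligible to be named. RSN_LD1.110_ccs_47951_454_0_454_454_SUB0_pTNp_20, of 454 nt, stood at 56.4 and 52.1 TPM in ribosome-free, 3.48 and 5.90 in monosome and 0 and 0.61 TPM in polysome RNA, and at 1.46 and 2.74 TPM in hippocampus. RSN_LD1.108_ccs_88071_417_0_417_417_SUB0_pNAp_62, of 417 nt, stood at 56.9 and 58.7, 10.5 and 10.5, and 2.05 and 0 TPM in the same order. In neither did any fraction overlap with another, and both were called lower in polysome than in ribosome-free RNA (limma adjusted p = 5.0e-04 and 0.0015).

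The reverse course was seen in RSN_LD2.104_sub_150373_8060_8827_9479_652_SUB0_pTNu_11, a subread of 652 nt. It was listed at 0.99 and 0 TPM in ribosome-free, 33.9 and 9.03 in monosome and 2095 and 2400 TPM in polysome RNA (limma adjusted p = 3.9e-04 against ribosome-free and 0.0030 against monosome RNA). Polysome RNA had 99.0% of its mean TPM summed over the fractions, a sum that takes no account of how much RNA each fraction held. The 652-nt isoform was listed at 0 in both hippocampus libraries and was uneven in CA1, at 0.05 and 83.9 TPM in somata and 65.7 and 0 TPM in neuropil. RNN_LD1.109_sub_157996_2603_18350_19048_698_SUB0_pTNp_30, of 698 nt, was listed at 0 in both ribosome-free libraries, at 329.0 and 159.7 TPM in monosome and at 171.8 and 257.0 TPM in polysome RNA, and the last pair of groups overlapped.

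Monosome RNA stood out for RNN_LD1.109_ccs_72661_512_0_512_512_SUB0_pTNp_25, of 512 nt. Its values were 17.54 and 21.55 TPM in ribosome-free, 89.6 and 90.2 in monosome and 2.32 and 4.33 TPM in polysome RNA. The log2 fold change of polysome against monosome RNA was -4.43 ± 0.27 (SE) with a limma adjusted p of 0.0015, and that of monosome against ribosome-free RNA 2.15 with an adjusted p of 0.00395. RSN_LD1.108_ccs_68192_435_0_435_435_SUB0_pTNp_36, of 435 nt, stood at 6.75 and 11.8, 279.8 and 147.0, and 41.9 and 55.1 TPM in the same order, again with no overlap between fractions. Its hippocampus values differed widely, at 29.6 and 487.5 TPM.

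The lower end of monosome against ribosome-free RNA, beside the 454-nt isoform, was held by RSN_LD1.103_ccs_75093_628_0_628_628_SUB0_pNAp_137, of 628 nt. It stood at 27.5 and 51.8 TPM in ribosome-free, 0 and 1.43 in monosome and 4.05 and 0 TPM in polysome RNA. The call (limma adjusted p = 0.015) was lost when any of the 4 libraries of these 2 fractions was left out. RSN_LD1.106_ccs_8450_636_0_636_636_SUB0_pNAp_105, of 636 nt, had 32.2 and 47.6 TPM in ribosome-free, 34.6 and 34.3 in monosome and 0 and 2.12 TPM in polysome RNA, so its ribosome-free and monosome values overlapped and both lay above the polysome values.

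In CA1 the question was whether short isoforms are found more in the neuropil, where dendrites lie, or in the somata. No isoform of any length was called by limma in neuropil against somata (0% of 20393), and so none of the 602 short isoforms tested. The smallest adjusted p was 0.179. In simulated data this test recovered 94 of 200 isoforms that averaged 10 TPM or more and were shifted by 3 log2 units. The differences of the abundant isoforms described below were smaller than that shift, and recovery at their size is not given here. The lack of calls therefore does not show equal levels. The paper compared isoforms of neuronal genes with several isoforms between these layers and reported significantly enriched ones in both. Its procedure was not repeated here. At an unadjusted p under 0.05 there were 106 short isoforms, 58 higher and 48 lower in neuropil, or 17.6% against 14.8% of all isoforms. The median log2 fold change was -0.03 over the short isoforms and 0.01 over all, and 310 of the 804 had a higher mean in neuropil and 348 a lower one, while the other 146 were listed at 0 in all 4 libraries. In such bulk tissue, fewer cells of a type and less RNA per cell cannot be told apart.

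The summed TPM of the class was nevertheless higher in both neuropil libraries than in both somata libraries, at a ratio of 1.16 of the mean shares (exact two-sided permutation p = 0.333, the smallest possible). This was not so once the 10 most abundant isoforms of any length were taken out of each library. The class then held 8.43% and 7.88% of the remaining TPM in neuropil and 8.20% and 8.12% in somata, so the layers overlapped. Averaged over replicates the short isoforms summed to 96691 TPM in neuropil and 83501 in somata. Of the difference of 13190 TPM, 9793 lay in the 10 isoforms with the largest absolute differences, of which 9 were higher in neuropil. Without those 10 the class held 6.76% and 6.61% of neuropil and 6.49% and 6.20% of somata TPM. These 10 were picked by their difference in the same libraries, so their values are a description.

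The largest contribution was that of the 558-nt isoform, with the values given above, followed by the 595-nt and the 539-nt isoform. The 539-nt isoform stood at 2360 and 2440 TPM in somata and 3720 and 4426 TPM in neuropil, with no overlap (log2 fold change 0.76 ± 0.12 (SE), limma adjusted p = 0.184). The 1 isoform of the 10 that was lower in neuropil was RNN_LD1.108_ccs_108470_402_0_402_402_SUB0_pNAp_42, of 402 nt, at 1496 and 1474 TPM in somata and 557.6 and 697.7 TPM in neuropil (-1.25, adjusted p = 0.179). This isoform lies outside the rule for named isoforms and was chosen after its values were seen.

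**Figure D5:**
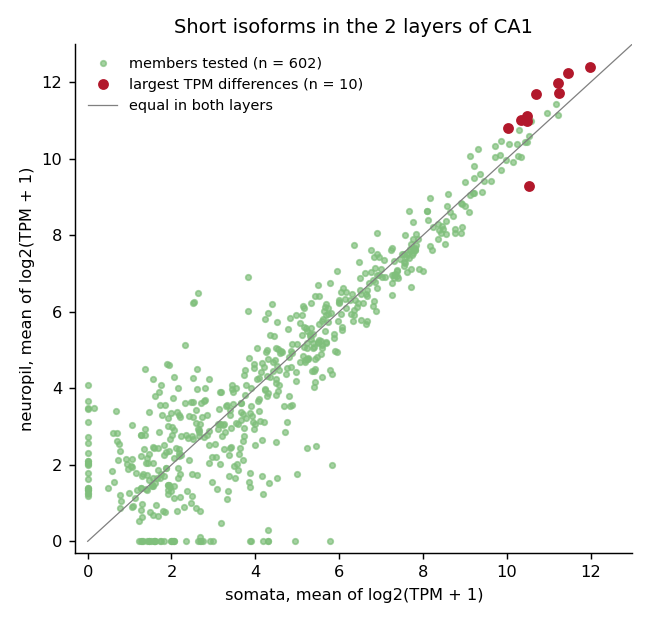
Mean of log2(TPM + 1) over 2 libraries in neuropil (vertical axis) against somata (horizontal axis) for the 602 short isoforms tested, with the 10 isoforms of the largest absolute difference in mean TPM in dark red and a line of equal levels. Of the dark red points 9 lie above the line and 1 below it, and points scatter most widely at low levels.

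At lower levels, the widest ratios in CA1 came from isoforms listed at 0 in some libraries. RNN_LD1.106_ccs_100020_576_0_576_576_SUB0_pNAp_27, of 576 nt, stood at 62.4 and 46.7 TPM in somata and was listed at 0 in both neuropil libraries (limma adjusted p = 0.179). In hippocampus it stood at 127.6 and 118.7 TPM, and in the fractions at 225.1 and 333.2 in ribosome-free, 107.6 and 99.0 in monosome and 14.4 and 27.0 TPM in polysome RNA. RNN_LD2.109_sub_33142_655_0_655_655_SUB0_uNAp_31, of 655 nt, stood at 104.2 and 76.3 TPM in neuropil and 37.2 and 0 TPM in somata, where its own replicates differed as far as the layers did (adjusted p = 0.432).

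Around the limit of 700 nt lie 30 short isoforms within 10 nt inside it and 38 isoforms within 10 nt outside it. The most abundant inside in hippocampus, RSN_LD1.109_sub_84755_1950_458_1158_700_SUB0_pTNu_56, of 700 nt, stood at 1719 and 1298 TPM in hippocampus, 8729 and 8333 in ribosome-free, 2766 and 3374 in monosome and 1222 and 1093 TPM in polysome RNA. The most abundant outside, RSN_LD1.111_ccs_93138_708_0_708_708_SUB0_pTNp_176, of 708 nt, stood at 2780 and 2031 TPM in hippocampus, 1303 and 1235 in ribosome-free, 1672 and 1222 in monosome and 4124 and 3787 TPM in polysome RNA. These neighbours in length thus had opposite orders of ribosome-free and polysome RNA. The next pair, of 693 nt inside and 705 nt outside, stood at 868.1 and 1159 TPM and at 1688 and 1691 TPM in polysome RNA, and at 1275 and 1428 TPM and 969.9 and 920.6 TPM in ribosome-free RNA.

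A gene name is given by a supplementary table of the study for 1 of the short isoforms. RNN_LD1.105_ccs_113630_673_0_673_673_SUB0_uNAp_34 is an isoform of Krtcap2, which encodes a small membrane protein of the oligosaccharyltransferase complex that attaches sugar chains to proteins in the endoplasmic reticulum. It stood at 124.6 and 109.2 TPM in hippocampus, 124.8 and 129.0 in somata and 131.4 and 146.2 TPM in neuropil, and at 87.0 and 103.4 in ribosome-free, 150.4 and 126.1 in monosome and 96.2 and 90.4 TPM in polysome RNA. Monosome RNA lay above both other fractions, by a log2 fold change of 0.53 over ribosome-free RNA (limma adjusted p = 0.035), and polysome RNA lay below monosome RNA by -0.56 (adjusted p = 0.046). Both calls were lost in most alternatives, 11 and 10 of 16, and the first turned to -0.17 with median ratios. Its layers of CA1 did not overlap, but the difference of 0.13 was not called (adjusted p = 0.663).

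Part of the class was listed at 0 throughout these libraries, about as often as isoforms in general. In the 4 CA1 libraries 146 short isoforms (18.2%, against 18.1% of all isoforms) were listed at 0 throughout, and in the 6 libraries of the fractions 111 (13.8%, against 13.1%). In all 12 libraries together 74 of the 804 short isoforms were listed at 0, as were 2199 of all 28268 isoforms. Above 0 in every library were 339 short isoforms (42.2%, against 38.0%). Of the 179 at 0 in hippocampus, 5 were at 10 TPM or more in all 6 libraries of the fractions and 17 averaged 10 TPM or more over them. Over all isoforms, 57 were at 0 in hippocampus and at 10 TPM or more in all 6.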

How the data were processed

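RNA of 12 libraries, 2 in each of 6 groups, was measured by the study with Illumina sequencing. The deposited values are TPM, which the authors made with RSEM and Bowtie 2, after adapter trimming by flexbar, against a reference of the 28268 FLTs (genome build rn6). The labels name RSEM and TopHat2 for processing, and the version of RSEM is not given in the sources used here. The hippocampus and CA1 libraries were poly(A)-selected and read from a single end, those of the fractions were made with a total RNA kit (the labels give polyA RNA) and read in pairs, and the stated RSEM arguments are those for pairs. RSEM divides by an effective length, which for a short transcript depends strongly on the fragment length of the library, and divides reads among isoforms of like sequence. Fragment lengths are not given in the tables, and their part in the levels of short isoforms was not tested. As the 3 tables may have been normalized apart, no test crosses tables. No sequence of the isoforms was used here.

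The test was the moderated linear model of limma 3.58.1 (R 4.3.3) with an intensity trend in eBayes, two-sided, on log2(TPM + 1), over all isoforms that averaged 1 TPM or more in the table, with Benjamini-Hochberg adjustment over all of them and a threshold of 0.05. Fold changes are on the log2(TPM + 1) scale and understate the change of low isoforms. The 3 fractions were fitted together, and the 2 layers of CA1 on their own. Tested on simulated data with 200 isoforms shifted by 3 log2 units, the test recovered 165 with 15 false calls for polysome against ribosome-free RNA (19667 isoforms) and 94 with 0 false calls for neuropil against somata (20393 isoforms). The shifted isoforms were drawn from those that averaged 10 TPM or more, so recovery at lower levels was not tested. With no shift, 5.81% and 6.42% of the limma p-values were under 0.05 in these 2 comparisons.

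The members, lists and tests were chosen with earlier results of these data known. Isoforms were named by a rule: the 3 most abundant short isoforms in each group, the 3 highest and 3 lowest called log2 fold changes of each comparison among isoforms that averaged 10 TPM or more and whose groups did not overlap (called or not in CA1), the 2 most abundant in hippocampus within 10 nt on either side of 700 nt, and every isoform that a supplementary table pairs with a gene. At most 2 of each direction are printed. Alternatives changed the pseudocount (0.1 or 5), the filter (none or a mean of at least 5 TPM), the scaling, the libraries in the fit, a block for the replicate number, the prior variance, and left out each library or the 10 most abundant ribosome-free isoforms.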

Additional observations from a re-analysis of the deposited data

How the results depend on the processing

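For the short isoforms called higher and lower in polysome against ribosome-free RNA, there were 45 higher calls with quantile normalization and 40 with median ratios. Of all isoforms, 20.5% and 21.4% were called higher in these settings. The median log2 fold change there was -0.30 with a pseudocount of 5, 0 with no filter on low levels, -0.93 with quantile normalization, -0.97 with median ratios and -0.69 without the 10 most abundant ribosome-free isoforms. In monosome against ribosome-free RNA, no filter gave 47 lower calls, against 4.15% of all isoforms. Quantile normalization gave 75 higher and 113 lower (16.1% and 13.7% of all isoforms), and median ratios 53 higher and 136 lower (15.4% and 15.1% of all). The median there was 0.58 and 0.30 with pseudocounts of 0.1 and 5, 0.20 with no filter, 0.31 without the 10 most abundant ribosome-free isoforms, and turned to -0.023 with quantile normalization and -0.15 with median ratios. In polysome against monosome RNA, no filter gave 15 higher calls, against 6.63% of all isoforms. The median there was -1.19 and -0.65 with pseudocounts of 0.1 and 5 and -0.65 with no filter. Without the 10 most abundant isoforms of each library, the class held 8.16% of the remaining TPM in neuropil and 8.16% in somata, and these layers then overlapped. The same share was 16.3% in ribosome-free and 13.1% in monosome RNA. The share of the class in its 10 most abundant polysome isoforms was 32.5% when these were chosen in each library. In neuropil against somata, a constant prior variance tried together with a pseudocount of 0.1 gave 5 higher and 13 lower calls where limma otherwise gave 0. Of all isoforms, 1.01% were called higher and 1.27% lower in that setting. The cause of these changes was not tested.

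With 1 library left out, where the lone library of its group is assumed to vary like the others, polysome against ribosome-free RNA had 45 to 85 higher and 144 to 167 lower calls and a median of -0.54 to -0.35. Monosome against ribosome-free RNA had 76 to 138 higher and 49 to 64 lower calls and a median of 0.38 to 0.46. Polysome against monosome RNA had 10 to 25 higher and 100 to 211 lower calls and a median of -1.09 to -0.88. Neuropil against somata had 0 calls throughout.

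Whether libraries with the same replicate number share a lysate or an animal is not given. The deviations of same-numbered libraries from their group means correlated at 0.0022, 0.0026 and -0.0099 in the 3 comparisons of fractions and at 0.033 in CA1. Over the short isoforms alone these values were -0.091, -0.056 and 0.087 in the fractions and 0.032 in CA1. Such correlations cannot show whether the libraries were paired. With the replicate number as a block, 79 short isoforms were higher and 181 lower in polysome against ribosome-free RNA, 134 and 70 in monosome against ribosome-free RNA, 21 and 191 in polysome against monosome RNA, and 0 and 0 in neuropil against somata. Over all isoforms these calls were 31.7% and 9.99%, 27.8% and 6.21%, 9.07% and 8.57%, and 0% and 0%.

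Of 1813 values of single named isoforms under the alternatives, 1632 kept their side of the threshold, 159 lost and 21 gained a call. The other 1, the Krtcap2 isoform in monosome against ribosome-free RNA, turned to -0.17 with median ratios. The 1632 include values without a call whose direction changed. In neuropil against somata the 652-nt isoform had a log2 fold change of -0.21, which ranged from -3.38 to 2.96 under the alternatives. Depth is unknown, so it cannot be said which of the low levels rest on few reads, and values listed at 0 are estimates.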
